A study of Mus musculus with 2 samples.

Results

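The fibroblast growth factor gene Fgf2, the gene Nudt6 that lies against its 3′ end on the opposite strand, the ligand genes Fgf1 and Fgf9 and the 4 receptor genes Fgfr1, Fgfr2, Fgfr3 and Fgfr4 were followed in mouse retina. These 8 genes were chosen by name from the 23356 gene symbols of the deposited table, with earlier results of these data known. The values of a gene's transcripts were added. Total RNA of retinas taken from pups on day 15 after birth gave 1 library for the control and 1 for the triple mutant. Dnmt1, Dnmt3a and Dnmt3b, which encode DNA methyltransferases, were flox/flox (flanked by loxP sites on both alleles) in either genotype. The control was negative and the mutant positive for Rx-Cre, a Cre recombinase driven by regulatory sequence of the eye-field gene Rx, which acts in the retinal lineage. The control is labelled as strain C57BL/6, the mutant as C57BL/7, and the sources used here do not give the number of animals pooled. With 1 library per genotype there was no replicate check and no test between genotypes, so strain, animal and library differences cannot be told apart from genotype. In a whole tissue, fewer cells of a type and less RNA per cell cannot be told apart either.

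Fibroblast growth factors are secreted proteins that bind receptor tyrosine kinases on the cell surface together with heparan sulfate chains, and the receptors signal through docking proteins to the RAS and MAP kinase cascade. Sprouty, Spred and Dusp genes are induced by the pathway and restrain it. FGF2 and FGF1 lack a classical signal peptide and leave cells by an unusual route. In the retina FGF2 is best known as a survival factor for photoreceptors whose RNA rises after light damage or injury, and Mueller glia, the radial support cells, respond to it. NUDT6 is a member of the Nudix family of nucleotide-sugar and nucleotide hydrolases and is also known as the antisense partner of FGF2.

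The sequences upstream of Fgf2 and Nudt6 are shown first because the floxed genes encode enzymes that methylate CpG dinucleotides and because these genes had the largest ratios of the 8. The sequence upstream of Fgf9, a ligand gene that stayed within the size rule defined below, is shown for comparison. Each line gives 250 bases that end just before the annotated start in RefSeq (GRCm38.p6), 5′ to 3′ on the gene's strand, with CpG in capitals. The Fgf2 stretch is chr3:37348403-37348652 (plus strand), the Nudt6 stretch chr3:37419597-37419846 (minus strand) and the Fgf9 stretch chr14:58072436-58072685 (plus strand).
Fgf2: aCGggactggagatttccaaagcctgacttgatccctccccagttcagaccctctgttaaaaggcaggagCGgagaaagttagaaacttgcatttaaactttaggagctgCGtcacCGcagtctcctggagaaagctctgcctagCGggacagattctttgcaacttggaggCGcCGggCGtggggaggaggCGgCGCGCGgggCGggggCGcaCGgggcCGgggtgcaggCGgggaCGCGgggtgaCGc
Nudt6: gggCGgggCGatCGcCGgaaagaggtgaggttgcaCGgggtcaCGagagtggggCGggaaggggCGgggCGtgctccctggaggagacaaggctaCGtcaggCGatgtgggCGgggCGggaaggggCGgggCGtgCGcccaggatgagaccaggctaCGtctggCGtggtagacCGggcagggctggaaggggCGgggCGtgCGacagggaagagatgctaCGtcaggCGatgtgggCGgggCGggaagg
Fgf9: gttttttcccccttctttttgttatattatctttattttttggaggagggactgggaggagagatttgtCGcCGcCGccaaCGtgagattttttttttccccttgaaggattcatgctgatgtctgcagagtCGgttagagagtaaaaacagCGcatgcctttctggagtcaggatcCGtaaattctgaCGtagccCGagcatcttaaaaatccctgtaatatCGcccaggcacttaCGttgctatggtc

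The Fgf2 stretch held 20 CpG, the Nudt6 stretch 26 and the Fgf9 stretch 11. Over the 32851 promoter windows of the RefSeq table the median was 6 (quartiles 2 and 16), and 82.1% of windows held fewer CpG than Fgf2, 90.4% fewer than Nudt6 and 64.4% fewer than Fgf9. Among the receptor genes, Fgfr2 had 2 CpG, Fgfr4 had 15 and the 2 annotated starts of Fgfr3 had 19 and 24. The window of Nudt6 shares 147 bases with that of Spata5, the gene that starts next to it in the opposite direction, whose 250 bases held 28 CpG. The methylation of these bases was not analysed here. The STAT motif TTCNNNGAA, an interferon-response motif of 2 GAAA blocks set apart by any 2 bases and the AP-1 motif TGANTCA, searched on both strands of the 300 bases from 250 before the start, were in none of the 8 windows of Fgf2, Nudt6, Fgf9, Fgfr2, Fgfr3, Fgfr4 and Spata5. They were in 8.30%, 3.44% and 7.81% of all windows.

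Expression was given as FPKM, a fragment count scaled by transcript length and by library depth. An FPKM of 1 stood for 48.5 (control) and 56.8 (mutant) fragments on each kb of a transcript, as the step size among the lowest values gives. Ranges in brackets are 95% intervals from the fragments so recovered and cover counting error only. The ratio used for ranking is log2 of mutant over control after adding 1 FPKM, which understates the ratio of low genes, and a ratio of at least 1 either way (2-fold) is called past the size rule. A gene is called measured from 1 FPKM in either library, which held for 13280, and the central 95% of ratios ran from -0.63 to 0.82. The targeted genes were all lower in the library labelled mutant, with Dnmt1 at 53.5% of the control FPKM, Dnmt3a at 64.1% and Dnmt3b at 80.4%. Dnmt3b was near the 1 FPKM threshold, with 1.03 FPKM in control retina and 0.827 in mutant retina. Its log2 ratio of -0.15 had 25.9% of measured genes below it, against 1.07% for Dnmt1 and 2.48% for Dnmt3a.

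Fgf2 was much higher in the mutant library. Its 1 transcript (NM_008006, chromosome 3, 37348653 to 37404830, plus strand, mm10) had 2.12 FPKM in control retina (1.60 to 2.76) and 58.4 in mutant retina (55.7 to 61.2), from about 55 and 1763 fragments. That is a 27.5-fold difference (21.05 to 36.7), with a log2 ratio of 4.25 on the FPKM + 1 scale. By that ratio Fgf2 was number 4 from the top of the 13280 measured genes. In the control 11.5% of measured genes had a lower FPKM than Fgf2, and in the mutant 91.0% did.

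Nudt6 was higher in the same library by a smaller factor. Its transcript (NM_153561, chromosome 3, 37404984 to 37419590, minus strand) had 3.89 FPKM in control retina (3.33 to 4.52) and 26.6 in mutant retina (25.2 to 28.0), a 6.84-fold difference (5.83 to 8.06). Its log2 ratio of 2.50 placed it number 47 from the top. The order of the pair turned over: Nudt6 stood 1.83 times above Fgf2 in the control, and Fgf2 stood 2.20 times above Nudt6 in the mutant, on the FPKM scale. Of 5 members with at least 1 FPKM, these 2 were past the size rule upwards and 0 were past it downwards. Over all measured genes the shares were 1.84% and 0.648%. The members were chosen with earlier results of these data known, so the 2 of 5 is a description and no test. Nudt6 is included as the neighbour of Fgf2, so the 2 genes are not separate cases. In the plot of FPKM by gene they are the pair that climbs across the others.

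**Figure D1:**
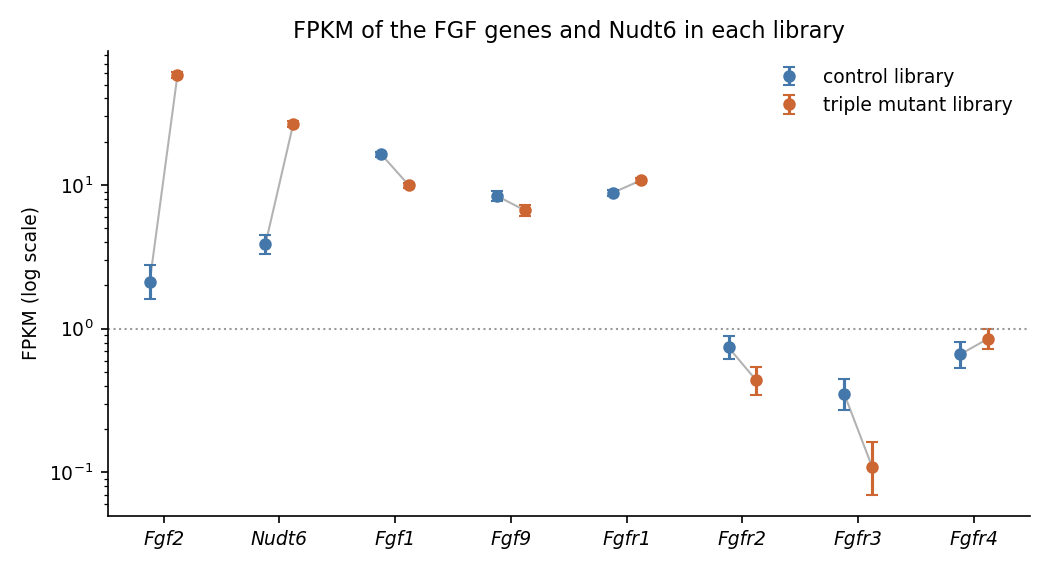
FPKM (log axis) of the 8 genes in the control and the triple mutant library, 1 point per library; bars are 95% intervals of counting error only and the dotted line marks 1 FPKM. Fgf2 moves from 2.12 to 58.4 and Nudt6 from 3.89 to 26.6, while Fgf1, Fgf9 and Fgfr1 stay between 6.67 and 16.3 and the other 3 receptors stay under 1.

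**Figure D2:**
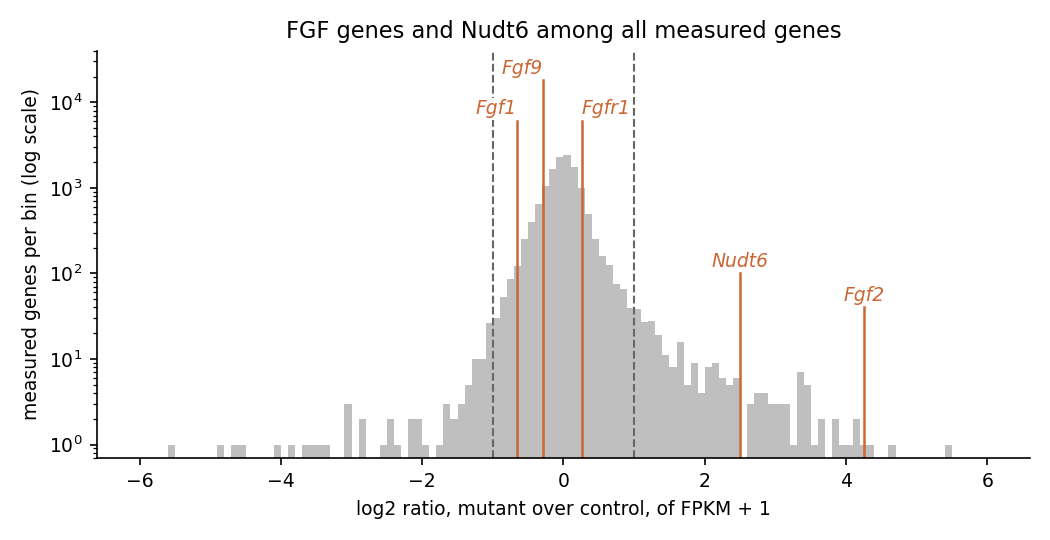
Number of measured genes (log axis) by log2 ratio of mutant over control on the FPKM + 1 scale, for 13280 genes, with dashed lines at a ratio of 1 either way. Fgf2 (4.25) and Nudt6 (2.50) lie in the sparse upper tail, and Fgf1 (-0.66), Fgf9 (-0.29) and Fgfr1 (0.26) lie between the dashed lines.

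The gene models bear on how far these 2 values are separate. The authors' model of Fgf2 ends 153 bases before that of Nudt6 begins, so in their table the pair shares 0 bases. Cut to the authors' span, the Fgf2 transcript has 695 bases in 3 exons, of which 465 are coding with the stop codon. In GENCODE M21 the matching transcript of Fgf2 runs on to 37410108 and has 5973 bases, 5278 more than lie within the authors' span. This long last exon covers 561 of the 1070 bases of Nudt6 (52.4%) in 2 of its 5 exons, 447 of them coding. Fragments from the long end of Fgf2 would thus fall on Nudt6 unless counting used strand, which the sources used here do not state, and the part of such fragments in the Nudt6 value was not tested.

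**Figure D3:**
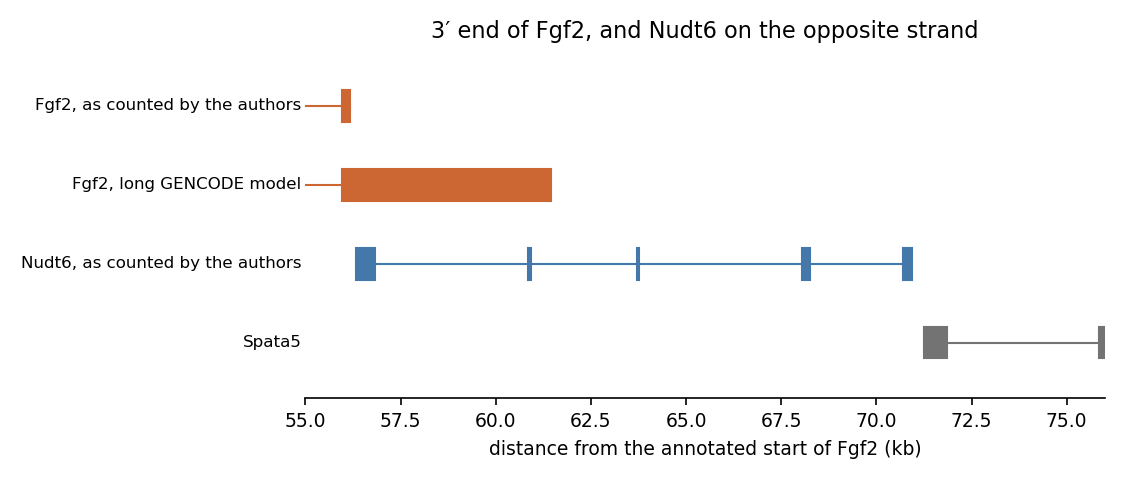
Map of the 3′ end of Fgf2 and its neighbours, in kb from the annotated start of Fgf2; boxes are exons and lines introns (Fgf2 and Spata5 continue outside the map). The Fgf2 model used by the authors stops before Nudt6, whereas the long GENCODE model covers 2 Nudt6 exons.

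Taken as 1 unit, the pair had about 226 fragments in control retina and 3132 in mutant retina, 11.8-fold more at equal depth (10.3 to 13.6). Fgf2 made up 24.3% of these fragments in control retina and 56.3% in mutant retina. A second deposited table, with its own values for the same pair of samples, lists 2 transcripts of Nudt6. There NM_001291044 had 3.34 and 22.1 FPKM and NM_153561 had 0.813 and 5.04, so both Nudt6 models were higher in the mutant. In the first table, where NM_153561 is the only Nudt6 transcript, it had 3.89 and 26.6 FPKM. The 2 Nudt6 values of the second table thus depend on how Cuffdiff divided the fragments, and are not 2 separate rises. Fgf2 had 2.06 and 59.2 FPKM in that table.

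The other genes around Fgf2 on chromosome 3 stayed within the size rule, as did 12949 of the 13280 measured genes. All 6 further neighbours with at least 1 FPKM had ratios from -0.34 to 0.69. Spata5, which begins 689 bases beyond Nudt6 in the authors' models, had 6.58 FPKM in control retina and 7.78 in mutant retina. On the other side of Fgf2, the cilium gene Bbs12 had 12.8 and 15.6 FPKM and the centrin gene Cetn4 had 2.23 and 4.20. Further out lay Spry1, a feedback inhibitor of FGF signalling, at 8.27 and 10.8 FPKM, Ankrd50 at 8.85 and 6.79 and 4932438A13Rik at 18.4 and 16.1. The cytokine genes Il2 and Il21 and the germ cell gene Adad1 were under 0.13 FPKM in both libraries. Of the other 20 measured Nudix hydrolase genes 0 were past the size rule, near the shares over all measured genes (1.84% higher, 0.648% lower). Their ratios lay between -0.26 and 0.23. The abundant Nudt3 had 101 and 99.1 FPKM and Nudt4 had 76.4 and 76.8.

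Fgf1, which encodes acidic FGF (NM_010197, chromosome 18, 38838673 to 38971274, minus strand), went the opposite way to Fgf2. It had 16.3 FPKM in control retina (15.7 to 16.9) and 9.93 in mutant retina (9.52 to 10.4), a 1.64-fold difference (1.55 to 1.74), and was the highest ligand gene of the control library. Its log2 ratio of -0.66 was within the size rule but below the central 95% of genes, with 2.18% of measured genes lower. Fgf9, a secreted ligand with a conserved role in eye development (chromosome 14, 58072686 to 58112720, plus strand), had 8.38 FPKM in control retina (7.71 to 9.09) and 6.67 in mutant retina (6.12 to 7.26), a log2 ratio of -0.29 with 13.3% of genes lower. Both ligand genes were lower in the mutant library by more than counting error.

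The makeup of ligand RNA therefore differed between the libraries. Of 18 genes for secreted FGFs, 6 had at least 1 FPKM in a library, and 1 of these, Fgf2, was past the size rule. Over all measured genes 1.84% were higher and 0.648% lower. The median ratio of the 6 was -0.11, against 0.00 over all measured genes. Fgf2 made up 6.21% of the summed FPKM of the 18 genes in control retina and 71.5% in mutant retina, and Fgf1 made up 47.8% and 12.2%. Without Fgf2 the sum was 32.0 FPKM in control retina and 23.3 in mutant retina. The remaining 3 measured ligand genes were Fgf22, with 2.39 and 1.31 FPKM, Fgf18 with 1.54 and 1.65 and Fgf3 with 1.12 and 1.39. The 4 FGF homologous factors, intracellular relatives that bind sodium channels, were all within the size rule with a median of -0.32. The highest of these were Fgf11 (28.0 FPKM in control retina and 23.9 in mutant retina) and Fgf13 (23.5 and 21.6).

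Fgfr1 carried most of the receptor RNA in both libraries. Summed over 3 transcripts (chromosome 8, 25518772 to 25575714, plus strand) it had 8.82 FPKM in control retina (8.43 to 9.23) and 10.7 in mutant retina (10.3 to 11.2), a 1.22-fold difference (1.15 to 1.29). That was 83.4% of the summed FPKM of the 4 receptor genes in control retina and 88.5% in mutant retina. Its log2 ratio of 0.26 had 86.4% of measured genes below it. In the coding exons of GENCODE, the Fgfr1 transcript NM_001079909 lacks an exon of 267 bases. There NM_001079908 differs from NM_010206 by an exon of 84 in place of 90 bases. The whole models also differ in length, with 4046 bases for NM_001079908 and 5008 for NM_010206 within the authors' span. NM_010206 had 4.86 and 5.17 FPKM, NM_001079908 had 3.75 and 4.97 and the form without the exon of 267 bases had 0.21 and 0.598. The short form thus made up 2.38% of Fgfr1 FPKM in control retina and 5.56% in mutant retina, as Cuffdiff divided the fragments of shared exons.

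The other 3 receptor genes were each under 1 FPKM in both libraries and so were not measured by that threshold. Fgfr2 lies on chromosome 7 (130162451 to 130266808, minus strand), Fgfr3 on chromosome 5 (33721724 to 33737068, plus strand) and Fgfr4 on chromosome 13 (55152818 to 55168759, plus strand). Fgfr2 had 0.740 FPKM in control retina (0.611 to 0.889) and 0.437 in mutant retina (0.345 to 0.545), 1.69-fold lower (1.26 to 2.29). Fgfr3 had 0.351 FPKM (0.272 to 0.447) and 0.110 (0.0702 to 0.163), 3.21-fold lower (1.98 to 5.35), from about 66 and 24 fragments. Fgfr4 had 0.663 FPKM (0.537 to 0.809) and 0.850 (0.717 to 1.001), and its fold of 1.28 (0.984 to 1.68) was within counting error. So the 2 low receptors Fgfr2 and Fgfr3 were below the control by more than counting error, at levels where the pseudocount leaves ratios of only -0.28 each.

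FGF receptors use alternative exons for the third immunoglobulin loop, the b form lying before the c form in the gene, and these forms bind different ligands. For Fgfr2, NM_010207 uses the downstream exon of 145 bases and carried all of the control FPKM, while NM_201601, with the upstream exon of 148 bases, was listed at 0 in control retina and at 7.03e-06 FPKM in mutant retina. For Fgfr3, the 4 transcripts with the downstream exon of 145 bases summed to 0.176 FPKM in the control, about 33 fragments, and 0 fragments in the mutant. NM_001163217, with the upstream exon of 151 bases, had 0.176 and 0.109 FPKM, about 33 and 24 fragments. The 5 Fgfr3 transcripts share most exons and all had too few fragments for the authors' test, so this division is an estimate from shared exons.

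In the control library the members ranked by FPKM from Fgf1 over Fgfr1, Fgf9, Nudt6, Fgf2, Fgfr2 and Fgfr4 to Fgfr3. The counting intervals of Fgfr1 and Fgf9 overlapped, as did those of Fgfr2 and Fgfr4. In the mutant library the order was Fgf2, Nudt6, Fgfr1, Fgf1, Fgf9, Fgfr4, Fgfr2 and Fgfr3, where the intervals of Fgfr1 and Fgf1 met. Fgf2 therefore passed from below 4 members to above all of them.

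The authors' deposited table gives Fgf2 a p-value of 0.00025 and a q-value of 0.0627, and Nudt6 0.0003 and 0.0715; neither was called, since the highest q-value called was 0.0425. That table calls 69 of 19556 tested transcripts (0.353%), and none of the members' transcripts. Fgf1 had a p-value of 0.0428 and a q-value of 0.999 in the authors' deposited table, and the tested transcripts of Fgf9, Fgfr1, Fgfr2 and Fgfr4 had p-values from 0.316 to 0.852. The second deposited table calls none of the members' transcripts either, and its p-values for Fgf2, Nudt6 and Fgf1 were higher. All these values compare 2 libraries, not 2 genotypes.

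Of 26 measured adaptor and MAP kinase cascade genes 1 was higher, Stat3 (19.3 FPKM in control retina and 46.5 in mutant retina), a transcription factor gene that also serves cytokine receptors and is in the reactive gliosis list below, and 0 were lower, beside 1.84% higher and 0.648% lower over all measured genes. The list's median was -0.12, and the abundant kinase gene Araf had 84.4 and 71.4 FPKM, within the size rule. Of 24 measured target and feedback genes 1 was higher and 1 was lower, with a median of -0.14. The higher one was Nab2, a corepressor of EGR factors, with 3.86 and 9.18 FPKM. The lower one was the sprouty gene Spry3, with 6.21 and 2.60 FPKM and a ratio of -1.003, at the edge of the rule. The abundant members Ier3 (61.8 and 57.6 FPKM) and Spry2 (58.0 and 52.6) were within it.

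Outside the naming rule, and chosen after their values were seen, the ETS factor genes Etv4 and Etv5, which are induced by FGF signalling, had 2.16 and 3.96 FPKM and 11.97 and 17.97 FPKM. Their ratios were 0.65 and 0.55. The phosphatase gene Dusp6, a classic readout of the pathway, had 15.0 and 15.6 FPKM, and Spry4 had 4.24 and 2.56. The target list thus held genes on either side of 0, 10 above and 14 below.

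**Figure D4:**
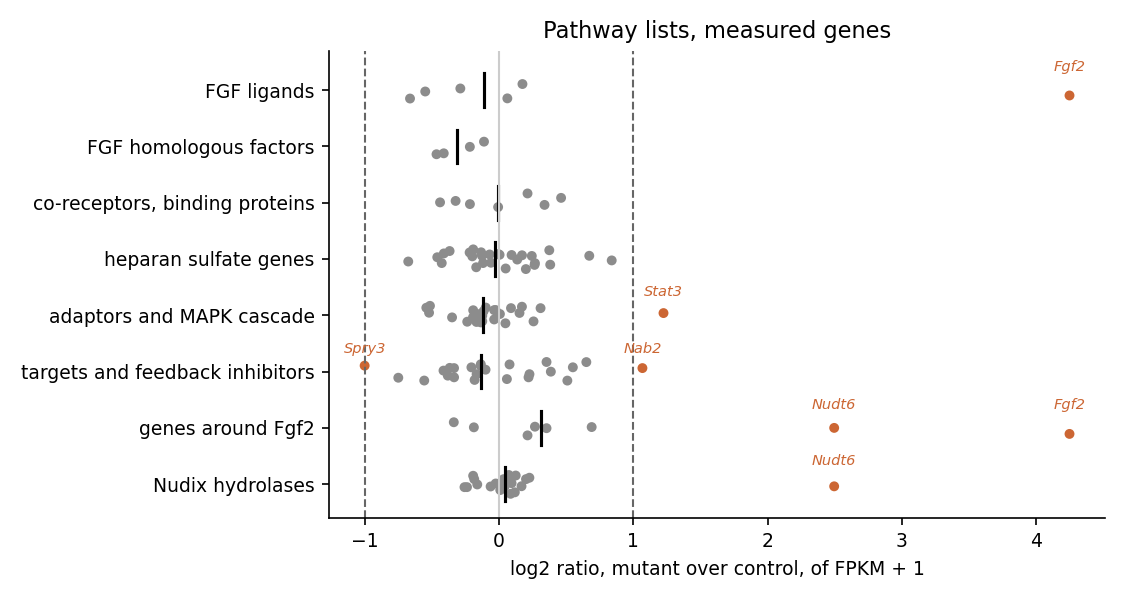
Log2 ratios of mutant over control (FPKM + 1) for the measured genes of 8 lists; each point is a gene, black bars are list medians, dashed lines mark a ratio of 1 and orange points lie past it. Besides Fgf2 and Nudt6, the named points past the rule are Stat3 (1.22), Nab2 (1.07) and Spry3 (-1.003).

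On the cell surface, 0 of 28 measured heparan sulfate genes passed the size rule (median -0.03). That count is near the shares over all measured genes, 1.84% higher and 0.648% lower. Agrn, which encodes the heparan sulfate proteoglycan agrin, had the highest ratio of that list, 0.84, with 32.4 and 58.7 FPKM. This was just above the central 95% of genes, which ended at 0.82. Sulf2, an enzyme that removes sulfate groups from heparan sulfate, had 38.8 and 50.5 FPKM. Of 7 measured co-receptor and binding protein genes 0 were past the rule (median -0.01), also near those shares. The adhesion protein gene Nptn had 108 FPKM in both libraries and Fibp, whose product binds acidic FGF, had 20.2 and 23.5.

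Markers of other cells and tissues differed between the same 2 libraries. The counts past the size rule below stand beside 1.84% higher and 0.648% lower over all measured genes. The Mueller glia list had 0 of 12 genes past the size rule and summed to 2579 FPKM in control retina and 2683 in mutant retina. Its ratios lay on either side of 0, 8 above and 4 below, so the near-equal sums do not mean unchanged genes. They ran from -0.76 for Glul (952 and 561 FPKM), below the central 95% of genes, to 0.68 for Slc1a3 (75.6 and 122 FPKM). The reactive gliosis list had 6 of 10 measured genes higher and 0 lower (47.7 and 186 FPKM in sum). Gfap, a filament gene of reactive glia, had 7.72 and 25.6 FPKM. Microglia and macrophage markers had 7 of 11 measured genes higher and 0 lower (29.5 and 127 FPKM). Astrocyte markers had 2 of 5 higher (35.0 and 62.2), 1 of them Gfap, which is also in the reactive gliosis list. Pigment epithelium and melanocyte markers had 8 of 9 lower (135 and 7.08 FPKM) and lens and ciliary body markers 8 of 8 lower (181 and 11.6), with 0 higher in either. Cone markers had 4 of 8 lower (849 and 376 FPKM), and 2 of 8 in the second deposited table. All 8 cone ratios were below 0 in either table, with medians of -0.97 and -0.91. In the first they ran from -1.95 to -0.79, all below the central 95% of genes. Amacrine, horizontal and bipolar markers had 1 of 13 lower, and 0 in the second table. Ganglion cell markers had 0 past the rule, but 9 of 10 ratios were below 0, with a median of -0.57 and a sum of 1067 and 752 FPKM. The rod and vascular lists had 0 past the rule. Rod markers, which mark the labelled tissue, summed to 11815 and 10447 FPKM over 8 genes. The part of these differences in the values of Fgf2, Fgf1, Fgfr2 and Fgfr3 was not tested.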

How the data were processed

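Total RNA from 1 control and 1 mutant retina sample was sequenced. The submitters' processing notes name TopHat2 2.0.8, Cuffdiff 2.1.1 and the build mm10; the sources used here do not give strandedness, read layout or annotation. FPKM values of RefSeq transcripts were deposited by the authors, per the file headers. The authors' deposited tables also give a log2 fold change, p-values and q-values per transcript, per the file headers. A gene's FPKM was the sum over its transcripts in the table with symbols (30608 rows). Genes with an OK transcript and no transcript of failed or excessive-data status were used (15318 of 23356 symbols), and called measured at 1 FPKM or more in at least 1 library. For members under that level all transcripts were added whatever their status. Ratios used a pseudocount of 1 FPKM.

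Depth came from single-transcript genes of at least 1500 bases whose span matched GENCODE M21: among their low values, 99.7% of 320 (control) and 99.4% of 324 (mutant) came within 10% of a step to a whole number of fragments, at a fitted fragment length of 165 bases. Intervals are exact (Clopper-Pearson, conditional binomial; Poisson for levels) on those fragments and cover counting error only. Lengths are those of the GENCODE transcript cut to the authors' span; where it is shorter than that span (Fgf1, Fgf9), the intervals are approximate. The FPKM of all rows add to 359370 (control) and 363538 (mutant). Python 3.11.15, pandas 2.3.3 and scipy 1.17.1 were used, and the procedure was tested on simulated data.

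The members and gene lists were chosen with earlier results of these data known. Named genes were the members, list genes past the size rule and the 2 most abundant genes of each list. All genes around Fgf2 and the 5 genes nearest to Fgf2 in both libraries, without predicted genes, were named too. Fgf3, Fgf18, Fgf22, Gfap, Glul, Slc1a3, Etv4, Etv5, Dusp6 and Spry4 were named after their values were seen. A further gene that the rule names is not reported here. RefSeq promoter windows were used for 6 of the 8 members. Alternatives were the pseudocount, the filter, the second table (33362 rows, 99.9% matched to symbols), rescaling, single transcripts and status, and, added after seeing the data, plain folds.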

Additional observations from a re-analysis of the deposited data

How the results depend on the processing

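With a pseudocount of 0.1 FPKM the log2 ratios were 4.72 for Fgf2, 2.74 for Nudt6, -0.65 for Fgfr2 and -1.11 for Fgfr3, and with 5 FPKM they were 3.15, 1.83, -0.0784 and -0.0667, with Fgf1 at -0.51. A pseudocount shrinks low genes more, by its construction. With only the transcript of highest mean FPKM, Fgfr1 had 0.0753 and Fgfr3 -0.0837. The pair as 1 unit had a log2 fold of 3.57, against 4.78 for Fgf2 alone without a pseudocount. In the second table and after rescaling to a median of 0, every member kept its direction and stayed within the counting interval of its ratio. The genes past the size rule numbered 245 higher and 86 lower; they were 390 and 180 with a pseudocount of 0.1 FPKM, 92 and 33 with 5 FPKM and 156 and 56 among genes of at least 5 FPKM, where fewer genes were counted. Of 168 counts and medians of the 8 pathway lists under alternatives, 163 kept their value within 1.5 times or 0.1; the 5 that moved were the medians of the ligand list (-0.29 at 5 FPKM or more) and the homologous factors (-0.21 in the second table), and the target list, which lost Nab2 and Spry3 with a pseudocount of 5 FPKM and Spry3 in the second table. Among the 11 marker lists, cone genes lower numbered 2 in place of 4 in the second table and with a pseudocount of 5 FPKM. All 8 cone ratios stayed below 0 in each. Amacrine, horizontal and bipolar genes lower numbered 0 in the same settings and 2 with a pseudocount of 0.1 FPKM or none. With 5 FPKM added, microglia genes higher went from 7 to 4, pigment epithelium genes lower from 8 to 4 (5 among genes of at least 5 FPKM) and astrocyte genes higher from 2 to 1. No paired analysis was possible because each genotype has 1 library. Fgfr2, Fgfr3 and Fgfr4 rest on 24 to 144 fragments per library, which limits their precision.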

Other observations

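The 5 measured genes nearest to Fgf2 in both libraries, by distance between pairs of log2(FPKM + 1) values over 2 libraries, were Bst2, Pcolce, H2-Q4, Isg15 and Oasl2. Bst2, which encodes the antiviral membrane protein tetherin, had 2.35 FPKM in control retina and 48.4 in mutant retina. Pcolce, an enhancer of procollagen processing, had 2.80 and 44.9, and the class I histocompatibility gene H2-Q4 had 1.82 and 40.1. The interferon-induced genes Isg15 and Oasl2 had 1.04 and 41.5 FPKM and 1.59 and 30.6. With 2 libraries, likeness means only a similar level in each.

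Pairs of genes that share exonic bases on opposite strands in GENCODE were counted to set Fgf2 and Nudt6 beside others. Such a neighbour with at least 1 FPKM was found for 1873 measured genes, of which 18 passed the size rule upwards. For 6 of the 18 the neighbour was also higher, which makes 3 pairs, each counted from either gene. The background is 18 higher among the 1873 genes with a neighbour, and 1.84% higher over all measured genes. The count includes Fgf2 and Nudt6, which prompted it. Besides Fgf2 and Nudt6 the pairs were Dtx3l with Parp9 (ratios of 1.57 and 2.22) and Psmb9 with Tap1 (3.39 and 2.94), genes known to be induced by interferon. How the genes of each pair overlap was not compared. The part of fragments counted without strand in these values was not tested.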
